A study of Homo sapiens with 6 samples.

Results

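The genes described here are 10 genes of the NRF2 antioxidant response and of protection from ferroptosis: NFE2L2, KEAP1, HMOX1, NQO1, GCLC, GCLM, TXNRD1, SRXN1, GPX4 and FTH1. They were chosen by name, as the Ensembl genes with these symbols among the 62703 genes counted in each library, and all 10 were found. The study measured mRNA in MDA-MB-231 cells, an established line from a triple-negative (basal B) breast cancer, by RNA sequencing. It compared cells carrying a short hairpin RNA against RNF20 (shRNF20, 3 libraries) with cells carrying a control hairpin (shControl, 3 libraries). RNF20 is a ubiquitin ligase that acts on histone H2B. All 6 libraries therefore carry a hairpin. The labels do not give the number of hairpins against RNF20, whether the cells were pools or clones, or whether replicates were separate cultures, so p-values cover the spread among these libraries alone.

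NRF2, the protein made from NFE2L2, is a transcription factor that binds antioxidant response elements together with a small MAF protein. In unstressed cells KEAP1 holds NRF2 and presents it to a CUL3 ubiquitin ligase for degradation, so NRF2 activity is set largely by its protein level, which mRNA counts do not show. Its target genes make glutathione, regenerate thioredoxin, detoxify quinones and handle haem and iron. Ferroptosis is a form of cell death by iron-dependent lipid peroxidation, which GPX4 counters by reducing lipid hydroperoxides with glutathione.

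In the cells with the RNF20 hairpin, TXNRD1 and NQO1 mRNA rose by more than any other of the 10 genes, 2.39-fold and 2.61-fold, while GPX4 mRNA fell to 0.543 of its control level. SRXN1, GCLC, HMOX1 and NFE2L2 rose by 1.30-fold to 1.85-fold, and KEAP1 fell to 0.826 of its control level. GCLM and FTH1 were not past the threshold in either direction. In numbers, 6 of the 10 genes were higher and 2 lower at an adjusted p under 0.05 (edgeR's quasi-likelihood test, Benjamini-Hochberg adjustment over 15797 genes). Among all genes tested 28.7% were higher and 29.8% lower, so a call alone sets a gene little apart in these data. The median log2 fold change of the 10 genes was 0.39, and that of all genes tested was -0.01. The values of the 2 groups did not overlap for 8 of the 10 genes. The share of all genes tested without overlap was not counted, and 58.4% of them were past the threshold. Groups that do not overlap are therefore given here and below as a description alone. All 10 genes passed the filter on low counts. Counting the RNF20 hairpin libraries, which were close to each other, as 1 sample left TXNRD1, NQO1 and GPX4 past the threshold and took NFE2L2, KEAP1, HMOX1, GCLC and SRXN1 below it.

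Gene counts totalled 21988826 to 29685306 per library, and levels are given as CPM, counts per 1000000 gene counts after TMM scaling. RNF20 itself was at 57.8 to 58.5 CPM in the control libraries and at 11.1 to 14.1 CPM with its hairpin (log2 fold change -2.22, standard error 0.11, adjusted p = 5.23e-06 by edgeR). Of 6 markers of the line, 5 were found at 214.7 CPM or more in every library and SPARC was at 0.136 to 0.693 CPM. These 6 markers summed to 3307 to 3848 CPM in control libraries and 2778 to 2787 CPM in RNF20 hairpin libraries. CD44 (341 to 960 CPM over all libraries) had a log2 fold change of -1.23 and VIM -0.425. The values of EGFR (-0.18), CAV1 (-0.07), AXL (-0.06) and SPARC (0.15) were smaller. The summed leukocyte markers (8 genes, MS4A1 at 0 throughout) were at 2.98 to 4.03 CPM in control libraries and 1.69 to 2.86 CPM in RNF20 hairpin libraries, and the 7 endothelial and fibroblast markers at 7.20 to 16.2 and 27.3 to 30.2 CPM. The latter did not move together: PECAM1, of endothelium, had a log2 fold change of -2.95 (0.597 to 6.87 CPM over all libraries), and the fibroblast markers PDGFRB (2.34 to 20.8 CPM) and LUM (0.711 to 7.49 CPM) had 1.98 and 2.93. The 7 luminal markers summed to 136.9 to 152.9 and 177.4 to 182.1 CPM. ERBB2 made up most of this sum (91.3 to 141 CPM over all libraries, log2 fold change 0.45). Of the other 4 luminal markers tested, CDH1 had a log2 fold change of -1.38, GATA3 0.05, EPCAM 0.64 and ESR1, at 1.68 CPM or less, 3.76. Mitochondrially encoded genes took 0.934% to 1.38% of gene counts in control and 4.91% to 6.22% in RNF20 hairpin libraries. The control libraries differed more among themselves: the median SD of log2-CPM over the genes tested was 0.209 in them and 0.0860 with the RNF20 hairpin. The part of these differences in the results was not tested. As in any bulk sample, fewer cells of one kind and less RNA per cell cannot be told apart.

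The proximal promoters of these genes were searched for the core of the antioxidant response element, the letters TGACNNNGC on either strand, because this is the sequence that NRF2 and a small MAF protein read. In RefSeq sequence (GRCh38.p14) from 250 bases before to 50 bases after each annotated start, 8 of the 10 genes had an entry, with 13 starts in all. A match was found at 4 of these 13 starts, in TXNRD1, GCLM and KEAP1. Of 35116 promoters of the same length, 13.3% held a match. The matches lie at chr12:104215670-104215698 and chr12:104215761-104215789 (plus strand, first TXNRD1 start), chr12:104286920-104286948 (plus strand, second TXNRD1 start), chr1:93909446-93909474 (minus strand, GCLM), and chr19:10502807-10502835 and chr19:10502784-10502812 (minus strand, second KEAP1 start). Each is shown on the gene's strand, with the match in capitals and 10 bases on each side.
TXNRD1 start 1, 99 bases upstream: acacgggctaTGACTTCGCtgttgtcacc
TXNRD1 start 1, 8 bases upstream: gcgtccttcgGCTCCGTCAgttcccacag
TXNRD1 start 2, 102 bases upstream: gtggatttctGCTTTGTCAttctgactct
GCLM, 34 bases upstream: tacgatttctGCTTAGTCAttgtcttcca
KEAP1 start 2, 54 bases upstream: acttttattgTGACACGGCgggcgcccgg
KEAP1 start 2, 31 bases upstream: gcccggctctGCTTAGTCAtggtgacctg
GCLM and the second KEAP1 start share the letters GCTTAGTCA. The mRNA of GCLM was not past the threshold and that of KEAP1 fell. Whether these letters bear on either value was not tested. The windows of NFE2L2, NQO1, GCLC, SRXN1 and GPX4 do not hold these letters, which says nothing of sites outside them. A match is a description of the sequence and not a measured site.

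Of the regulators, NFE2L2 (ENSG00000116044.17, chr2:177227595-177392697, minus strand; positions of all genes are from GENCODE 29 on GRCh38) encodes NRF2 itself. Its level was 111, 87.1 and 89.2 CPM in the 3 control libraries and 127, 122 and 124 CPM in the 3 libraries with the RNF20 hairpin. The groups did not overlap, and control replicate 1 lay closest to the RNF20 hairpin libraries. Its log2 fold change was 0.38 (SE 0.10, 95% interval 0.15 to 0.60, adjusted p = 0.0101 by edgeR). This value rests on less than the whole gene, because the counts leave out every read that falls on exons of several genes. With those reads added from the strand columns, the log2 fold change was 0.24 (standard error 0.10, adjusted p = 0.0773 by edgeR), and the call was lost.

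KEAP1 (ENSG00000079999.14, chr19:10486120-10503741, minus strand), the adaptor that delivers NRF2 for degradation, went the other way. It was at 126, 105 and 109 CPM in control libraries and at 93.7, 94.8 and 92.1 CPM with the RNF20 hairpin. All 3 RNF20 hairpin libraries lay below the lowest control library, and they lay within 3 CPM of each other. The change on the log2 scale was -0.28 (SE 0.08, 95% interval -0.47 to -0.09, adjusted p = 0.0201 by edgeR), and 36.1% of the genes tested had one as low or lower. The call did not survive leaving out any 1 of the RNF20 hairpin libraries (edgeR adjusted p = 0.0575, 0.0513 and 0.0626 without replicate 1, 2 and 3).

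The KEAP1 to NFE2L2 ratio of counts was 1.139, 1.202 and 1.221 in control libraries and 0.7362, 0.7765 and 0.7416 with the RNF20 hairpin. The difference of the mean log2 ratio was -0.66, against SDs of 0.053 and 0.042 (n = 3 each). The exact permutation test gave p = 0.1, two-sided, the smallest that 3 against 3 libraries allow. With reads shared between genes added, the difference was -0.495 (exact permutation p = 0.1). In both countings every RNF20 hairpin library had a lower ratio than every control library.

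Among other partners and regulators of NRF2, 4 of 11 genes tested rose and 5 fell (median log2 fold change -0.12). The small MAF proteins that pair with NRF2 did not move together. MAFG was at 118.7, 116.5 and 117.6 CPM in control libraries and at 181.3, 180.7 and 185.5 CPM with the RNF20 hairpin (log2 fold change 0.63, standard error 0.06, adjusted p = 6.98e-05 by edgeR), while MAFF (-0.40) and MAFK (-0.25) fell. The MAFK call was lost with upper-quartile scaling and without control replicate 3 or any 1 RNF20 hairpin library (edgeR adjusted p 0.0572 to 0.113).

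NFE2L1, a transcription factor related to NRF2 that drives proteasome genes, fell from 469 to 609 CPM in control libraries to 298 to 320 CPM (log2 fold change -0.81, standard error 0.10, adjusted p = 0.000214 by edgeR). SQSTM1, the autophagy receptor p62 that binds KEAP1, rose from 845 to 1199 CPM to 1903 to 1988 CPM (log2 fold change 0.91, standard error 0.12, adjusted p = 0.000306 by edgeR). BACH1, a repressor that competes with NRF2 at HMOX1 and other genes, fell from 89.7, 134 and 88.8 CPM to between 68.7 and 72.6 CPM (log2 fold change -0.55, standard error 0.15, adjusted p = 0.0130 by edgeR). For each of these 3 genes the groups did not overlap. RBX1, a subunit of the CUL3 ligase, rose (log2 fold change 0.56), as did BTRC, another ligase subunit that targets NRF2 (0.42). DPP3, which binds KEAP1, fell (-0.49). CUL3 itself was at 63.0 to 70.7 CPM in control libraries and 61.2 to 65.9 CPM with the RNF20 hairpin, overlapping ranges.

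Of the target enzymes, TXNRD1 (ENSG00000198431.18, chr12:104215779-104350305, plus strand) is the cytosolic selenoenzyme that regenerates thioredoxin, and the first pair of sequences above lies at its first start. It was at 938, 781 and 764 CPM in control libraries and 1938, 1964 and 2036 CPM with the RNF20 hairpin. Every RNF20 hairpin library was above 2 times the highest control library, and the groups were far apart compared with their SDs of 96.0 and 51.0 CPM (n = 3 each). This gave a log2 fold change of 1.26 (SE 0.09, 95% interval 1.05 to 1.47, adjusted p = 2.05e-05 by edgeR), and 8.08% of the genes tested had one at least as high. TXN, the thioredoxin that TXNRD1 reduces, also rose (log2 fold change 0.55, standard error 0.09, adjusted p = 0.00128 by edgeR).

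NQO1 (ENSG00000181019.13, chr16:69706996-69726951, minus strand), a quinone reductase widely read as an NRF2 target, was at 109, 94.0 and 82.5 CPM in control libraries. With the RNF20 hairpin it was at 241, 234 and 269 CPM. The lowest RNF20 hairpin library lay far above the highest control library. Its log2 fold change was 1.38 (SE 0.11, 95% interval 1.14 to 1.63, adjusted p = 2.86e-05 by edgeR), and 6.92% of the genes tested had one at least as high.

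SRXN1 (ENSG00000271303.2, chr20:646615-653370, minus strand), sulfiredoxin, restores over-oxidised peroxiredoxins and was the least abundant of the 10 genes. Its raw counts were 42, 41 and 36 in control libraries and 63, 58 and 97 with the RNF20 hairpin, or 1.42, 1.62 and 1.53 against 2.42, 2.63 and 3.41 CPM. The groups did not overlap, and RNF20 hairpin replicate 3 was the highest. The change on the log2 scale was 0.89 (SE 0.23, 95% interval 0.36 to 1.43, adjusted p = 0.0107 by edgeR), the widest interval of the 10 genes. Without RNF20 hairpin replicate 3 it was 0.72 and no longer past the threshold (edgeR adjusted p = 0.0626).

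HMOX1 (ENSG00000100292.18, chr22:35380361-35394214, plus strand) encodes haem oxygenase 1, which releases iron from haem. It was at 15.8, 15.9 and 16.9 CPM in control libraries and 22.2, 19.9 and 22.3 CPM with the RNF20 hairpin. All RNF20 hairpin libraries were higher than all control libraries. This gave a log2 fold change of 0.41 (SE 0.10, 95% interval 0.18 to 0.64, adjusted p = 0.00824 by edgeR); without RNF20 hairpin replicate 1 it was 0.37 and not past the threshold (edgeR adjusted p = 0.0530).

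The 2 subunits of glutamate-cysteine ligase, the first step of glutathione synthesis, were measured apart. GCLC, the catalytic subunit (ENSG00000001084.13, chr6:53497341-53616970, minus strand), was at 27.2, 25.2 and 31.3 CPM in control libraries and at 38.4, 38.8 and 37.9 CPM with the RNF20 hairpin. The groups did not overlap, and the RNF20 hairpin libraries lay within 1 CPM of each other. Its log2 fold change was 0.46 (SE 0.10, 95% interval 0.23 to 0.69, adjusted p = 0.00427 by edgeR).

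GCLM, the modifier subunit (ENSG00000023909.10, chr1:93885205-93909456, minus strand), was at 114, 74.1 and 84.4 CPM in control libraries and at 97.4, 91.2 and 98.6 CPM with the RNF20 hairpin. The RNF20 hairpin libraries fell inside the range of the control libraries, whose replicate 1 was the highest of all 6 and replicate 2 the lowest. The change on the log2 scale was 0.07 (SE 0.14, 95% interval -0.26 to 0.40, adjusted p = 0.678 by edgeR). The outcome turned on single control libraries: without replicate 1 it was 0.25 and past the threshold (edgeR adjusted p = 0.0314), and without replicate 2 it was -0.075 (edgeR adjusted p = 0.584). The GCLM to GCLC ratio of counts was 4.195, 2.936 and 2.695 in control libraries and 2.539, 2.352 and 2.603 with the RNF20 hairpin, lower in every RNF20 hairpin library (difference of mean log2 ratio -0.36, exact permutation p = 0.1, two-sided, the smallest possible). Without control replicate 1 this difference was -0.17.

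**Figure D1:**
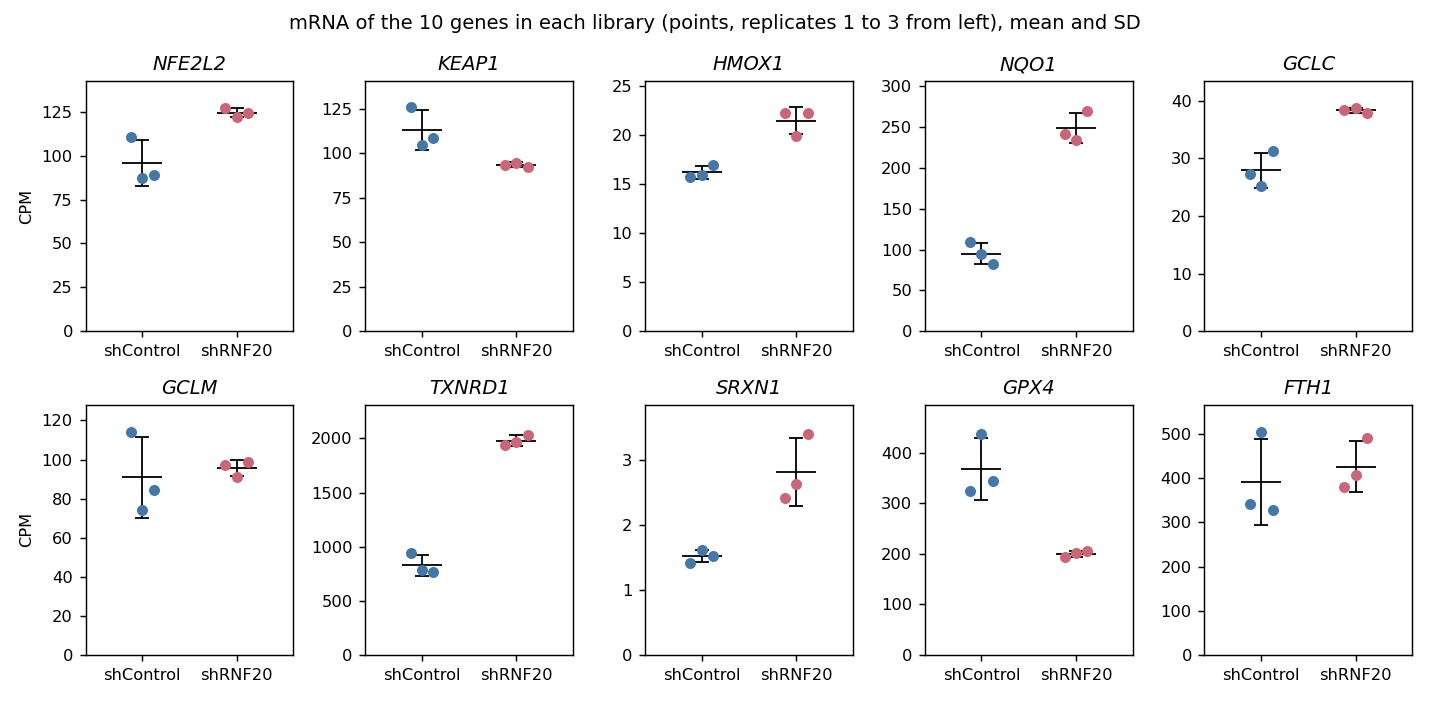
mRNA level of each of the 10 genes in CPM (y axis from 0, a different scale in each panel) for the 3 control hairpin and 3 RNF20 hairpin libraries; points are libraries, long bars the means and whiskers 1 SD. TXNRD1 and NQO1 stand well apart upward and GPX4 downward with the RNF20 hairpin, while the GCLM and FTH1 points overlap between groups.

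Of the 2 genes that act directly in ferroptosis, GPX4 (ENSG00000167468.20, chr19:1103926-1106791, plus strand) is the selenoenzyme that reduces lipid hydroperoxides within membranes. It was at 323, 438 and 344 CPM in control libraries and at 194, 201 and 205 CPM with the RNF20 hairpin. No RNF20 hairpin library reached the lowest control library. This gave a log2 fold change of -0.88 (SE 0.11, 95% interval -1.14 to -0.63, adjusted p = 0.000258 by edgeR), and 14.8% of the genes tested had one as low or lower. Among the 10 genes GPX4 and KEAP1 were the ones that fell.

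FTH1 (ENSG00000167996.16, chr11:61959718-61967660, minus strand), the ferritin heavy chain that oxidises and stores iron, was at 342, 504 and 328 CPM in control libraries. With the RNF20 hairpin it was at 379, 407 and 491 CPM. Control replicate 2 was the highest of all 6 libraries, and the groups overlapped. Its log2 fold change was 0.12 (SE 0.17, 95% interval -0.26 to 0.51, adjusted p = 0.562 by edgeR). Without control replicate 2 it was 0.32 and past the threshold (edgeR adjusted p = 0.0278), and without RNF20 hairpin replicate 3 it was -0.007 (edgeR adjusted p = 0.980).

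FTL, the ferritin light chain, was at 2435, 2533 and 2029 CPM in control libraries and at 2902, 2935 and 3166 CPM with the RNF20 hairpin. Its groups did not overlap (log2 fold change 0.36, standard error 0.09, adjusted p = 0.0103 by edgeR; 0.31 and 0.0583 without RNF20 hairpin replicate 3). The FTH1 to FTL ratio depends on which FTH1 reads are counted. The counts without shared reads hold only 12.7% of the FTH1 reads in the strand columns. Counted without shared reads it was 0.141, 0.199 and 0.161 in control libraries and 0.131, 0.139 and 0.155 with the RNF20 hairpin, overlapping ranges (exact permutation p = 0.2, two-sided). Counted with them it was 1.162, 1.596 and 1.345 against 1.086, 1.063 and 1.078, lower in every RNF20 hairpin library (difference of mean log2 ratio -0.34, exact permutation p = 0.1, the smallest possible).

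The shared reads change the level of FTH1 by far more than that of any other member. The FTH1 counts hold only 12.7% of the reads that its strand columns record, and 99.97% of the remainder is matched, read for read in number, by BEST1 on the opposite strand. BEST1 had 5 to 34 counts of its own per library, so the counts with the shared reads are the fuller measure of FTH1. With these reads FTH1 was at 2830, 4042 and 2729 CPM in control libraries and at 3151, 3121 and 3412 CPM with the RNF20 hairpin. The groups still overlapped (log2 fold change 0.04, standard error 0.14, adjusted p = 0.829 by edgeR). The 25 annotated FTH1 pseudogenes held 401 counts over all libraries, against 63374 for FTH1.

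NFE2L2 held 46.0% of its strand-column reads. Of the remainder 91.0% was matched by HNRNPA3, a splicing factor gene on the opposite strand with 1700 to 2868 counts of its own per library (log2 fold change 0.11, edgeR adjusted p = 0.465), so for NFE2L2 the shared reads cannot be assigned to either gene. In GENCODE 29 the 2 genes do not overlap (HNRNPA3 ends at 177223958), so the gene models behind the counts differ from those used here for the position and exon length of NFE2L2, and its level per kb is approximate. For NQO1 (84.6% held) and GCLC (80.8% held) the partners were antisense genes with 0 and with 0 to 5 counts of their own per library. Adding the shared reads gave log2 fold changes of 1.45 for NQO1 and 0.48 for GCLC, close to those without them. The other 6 genes held 99.99% or more.

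**Figure D2:**
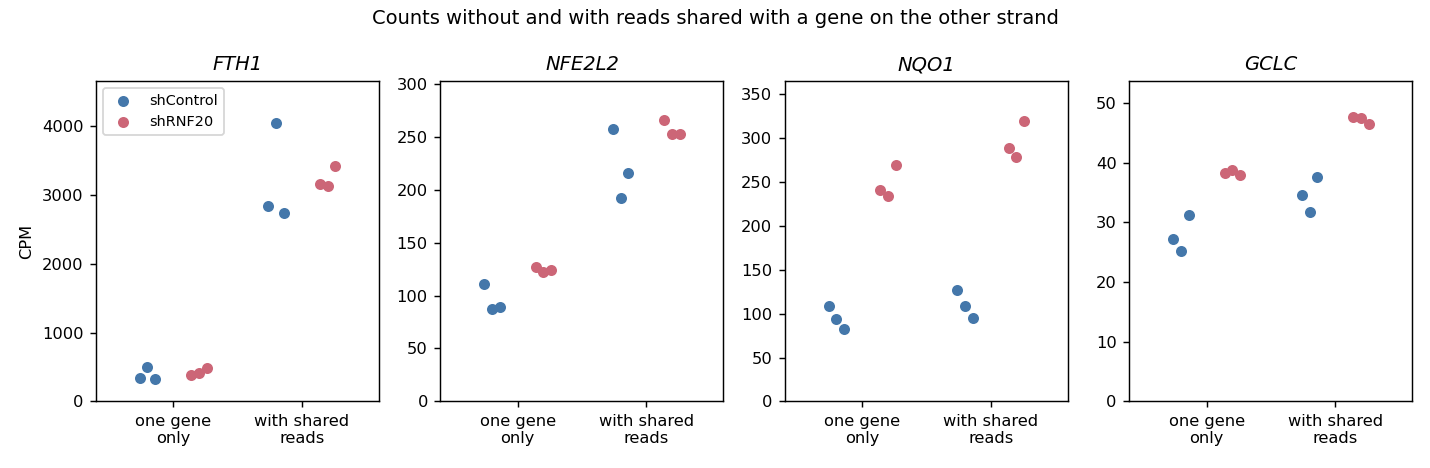
CPM (y axis from 0) of FTH1, NFE2L2, NQO1 and GCLC in each library, counted from reads over 1 gene only and with reads shared with a gene on the other strand; points are libraries. FTH1 moves from 328 to 504 CPM up to 2729 to 4042 CPM, with the groups overlapping in both, while NQO1 and GCLC keep the same separation.

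Divided by the length of their merged exons, the 10 genes spanned a wide range of levels. In control libraries, as CPM per kb with SD over 3 libraries, GPX4 (182 ± 30.2) and FTH1 without its shared reads (193 ± 48.3) led, and their order is within that spread. With its shared reads, the fuller measure, FTH1 was at 1577 CPM per kb, far above GPX4. TXNRD1 followed at 123 ± 14.3. KEAP1 (30.1 ± 3.02) and NQO1 (29.2 ± 4.02) differed by less than their spread, as did GCLM (16.8 ± 3.85) and NFE2L2 without its shared reads (16.0 ± 2.19). With those reads NFE2L2 was at 37.1 CPM per kb, above KEAP1 and NQO1 (33.9 with its own shared reads), so its place in this order depends on the counting. HMOX1 was at 6.74 ± 0.268, GCLC at 3.23 ± 0.358 and SRXN1 at 0.565 ± 0.0365. With the RNF20 hairpin TXNRD1, at 295 ± 7.60, stood above GPX4, at 99.0 ± 2.66, and NQO1, at 76.3 ± 5.65, stood above KEAP1, at 24.9 ± 0.364.

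**Figure D3:**
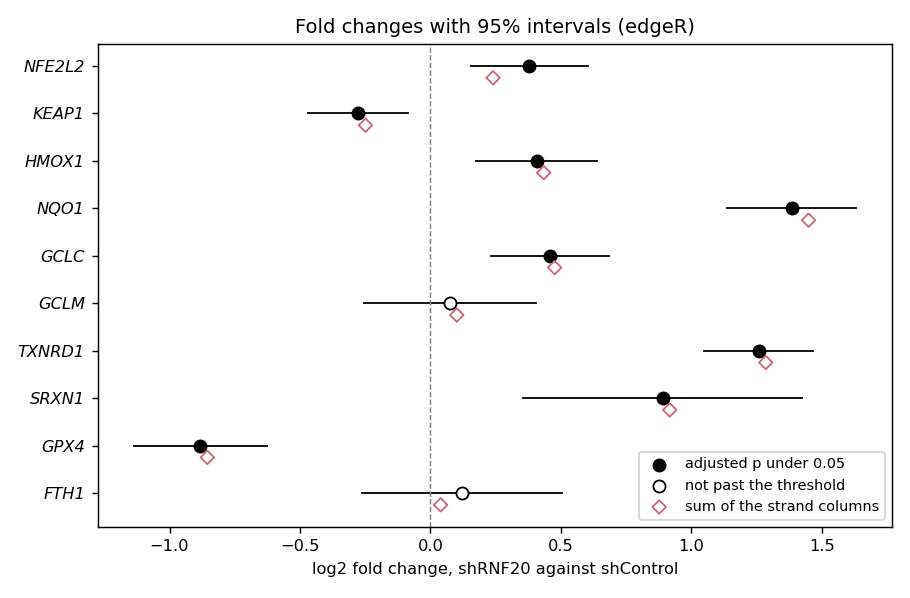
log2 fold change of each gene (x axis, RNF20 hairpin against control hairpin) from edgeR; circles are the counts without shared reads with their 95% intervals, filled where the adjusted p is under 0.05, and diamonds the sums of the strand columns. The intervals of NQO1 and TXNRD1 lie wholly above 1, that of GPX4 wholly below -0.6, and those of GCLM and FTH1 span 0.

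As a description over the 6 libraries, the genes whose log2-CPM followed that of NFE2L2 most closely, of 9859 tested genes whose log2-CPM averaged 3 or more, were MFSD8 (Pearson r 0.998), MTPN (0.996) and FAM168B (0.996). These correlations hold the difference between the groups as well as that within them, and the libraries share their scaling. None of the 10 genes was among these 3.

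The wider pathway was read from 8 gene lists with 146 distinct genes, of which 133 were tested. Of these 37 were higher (27.8%) and 37 lower (27.8%), with a median log2 fold change of -0.04. These shares are close to the 28.7% and 29.8% of all genes tested. The lists were chosen with earlier results of these data known. Shared reads leave the counts of some list genes incomplete. Of the list genes named here, those that hold under 80% of their strand-column reads are SQSTM1 (52.8%), MAFF (59.6%), PSTK (64.25%), EEFSEC (72.4%), GSTM3 (72.85%), LRP8 (73.6%), MAFK (76.7%) and STEAP3 (78.8%). With the shared reads SQSTM1 averaged 1961 CPM in control and 3682 CPM in RNF20 hairpin libraries (log2 fold change 0.94). All 8 kept their direction and call with these reads added.

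Of 25 other NRF2 target genes tested, 10 rose and 8 fell (median log2 fold change 0.20). The 2 with the smallest p were OSGIN1, an oxidative stress-induced growth inhibitor, and SLC3A2, the heavy chain of the cystine transporter. OSGIN1 rose from 24.5, 22.9 and 19.7 CPM to 64.2, 68.3 and 75.7 CPM, with the groups far apart (log2 fold change 1.63, standard error 0.11, adjusted p = 1.48e-05 by edgeR). SLC3A2 had a log2 fold change of 1.26. SLC7A11, the other chain of this transporter, rose from 158, 204 and 183 CPM to 392, 376 and 387 CPM. Its log2 fold change was 1.08 (standard error 0.095, adjusted p = 4.48e-05 by edgeR), and it is named after its value was seen. Genes that make NADPH, named here after their values were seen, went both ways. PGD (log2 fold change -0.85) and TALDO1 (-0.49) of the pentose phosphate pathway fell, while TKT of the same pathway (0.23) and malic enzyme ME1 (0.45) rose. The aldo-keto reductases AKR1C1 and AKR1C3, common NRF2 targets also named after their values were seen, fell (log2 fold changes -1.29 and -1.63) at low levels: AKR1C1 was at 2.61 CPM or less throughout, and AKR1C3 was at 12.8 CPM in control replicate 1 and 3.62 CPM or less elsewhere. AKR1C genes are near-identical copies, and reads that map to several places are not counted, so their values are uncertain.

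Of 20 glutathione enzymes tested 2 rose, 7 fell and 11 were not past the threshold (median log2 fold change 0.02). The 2 that rose were GSR, which regenerates reduced glutathione (75.1, 81.0 and 77.9 CPM to 107, 107 and 101 CPM; log2 fold change 0.43, standard error 0.07, adjusted p = 0.000885 by edgeR), and the glutathione transferase GSTM3 (0.51). GPX3, the secreted glutathione peroxidase, fell from 157, 129 and 126 CPM to 93.7, 87.9 and 90.7 CPM (log2 fold change -0.60, standard error 0.10, adjusted p = 0.000870 by edgeR). Neither GSR nor GPX3 had overlapping groups.

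Among 21 thioredoxin, peroxiredoxin and superoxide enzymes 7 rose and 5 fell (median log2 fold change 0.09). SOD2, the mitochondrial superoxide dismutase, fell from 983, 1774 and 1318 CPM to 387, 383 and 353 CPM (log2 fold change -1.86, standard error 0.19, adjusted p = 8.09e-05 by edgeR). GLRX, glutaredoxin, fell from 52.3, 85.2 and 76.5 CPM to 21.9, 20.5 and 18.9 CPM (log2 fold change -1.80, standard error 0.17, adjusted p = 6.58e-05 by edgeR). For both genes control replicate 1 was the lowest control library and still above 2 times every RNF20 hairpin library. PRDX5 (log2 fold change -0.81), MSRA (-0.50) and SESN3 (-2.67) also fell. SESN3 was at 3.01 CPM or less, and its call was lost without control replicate 1 (edgeR adjusted p = 0.0608, log2 fold change -1.68) or RNF20 hairpin replicate 1 (0.0568, -2.17).

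Of 19 iron-handling genes tested 7 rose, FTL among them, and 4 fell (median log2 fold change -0.03). HMOX2, the constitutive haem oxygenase, fell from 56.5, 42.3 and 50.1 CPM to 16.0, 15.9 and 15.8 CPM (log2 fold change -1.64, standard error 0.12, adjusted p = 2.02e-05 by edgeR). HMOX1 and HMOX2 thus moved in opposite directions. ACO1, the cytosolic aconitase that becomes iron regulatory protein 1, fell from 364, 332 and 318 CPM to 171, 162 and 170 CPM (log2 fold change -1.01, standard error 0.07, adjusted p = 2.19e-05 by edgeR). IREB2, iron regulatory protein 2, rose (0.45, edgeR adjusted p = 0.000518; named after its value was seen). BLVRA, biliverdin reductase (log2 fold change -0.44), and STEAP3, a ferrireductase (-0.36), fell. The STEAP3 call was lost without RNF20 hairpin replicate 1 (edgeR adjusted p = 0.0610).

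Of 24 ferroptosis lipid and radical-trapping genes tested 8 rose and 4 fell (median log2 fold change 0.05). Those that fell and are named here have unlike known roles. ACSL4, which loads polyunsaturated fatty acids into membranes and favours ferroptosis, fell from 239, 265 and 234 CPM to 154, 148 and 145 CPM (log2 fold change -0.73, standard error 0.07, adjusted p = 8.59e-05 by edgeR). GCH1, which makes the radical trap tetrahydrobiopterin and counters ferroptosis, fell from 25.8, 31.5 and 34.8 CPM to 10.2, 11.5 and 11.5 CPM (log2 fold change -1.47, standard error 0.13, adjusted p = 5.05e-05 by edgeR). PTGS2, cyclooxygenase 2, an inflammatory gene often read as a ferroptosis marker, fell from at least 121 CPM in each control library to at most 23.3 CPM (log2 fold change -3.45, standard error 0.33, adjusted p = 6.77e-05 by edgeR). AIFM2, the ferroptosis suppressor FSP1 that acts beside GPX4, was at 57.8 to 73.5 CPM in control and 63.0 to 66.7 CPM in RNF20 hairpin libraries (log2 fold change -0.04, edgeR adjusted p = 0.745; named after its value was seen).

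Because GPX4 and TXNRD1 are selenoproteins and moved in opposite directions, the 10 genes of selenoprotein synthesis were also read: 1 rose and 3 fell (median log2 fold change -0.08). EEFSEC, the elongation factor that brings selenocysteine to the ribosome, fell from 10.3, 10.1 and 9.79 CPM to 2.27, 2.31 and 3.34 CPM, with no overlap (log2 fold change -1.92, standard error 0.19, adjusted p = 7.36e-05 by edgeR). PSTK, which acts in making selenocysteine on its tRNA, rose (0.67), while SEPHS1 (-0.48) and the selenoprotein P receptor LRP8 (-0.49) fell. The LRP8 call was lost without RNF20 hairpin replicate 1 (edgeR adjusted p = 0.0542). Of 7 NADPH oxidase genes tested 1 fell and 6 were not past the threshold (median log2 fold change -0.38). CYBB, the catalytic subunit of the phagocyte oxidase, was at 1.23 CPM or less, with 6 to 29 counts per library (-1.10, edgeR adjusted p = 0.0513). Its call depended on the setting. Leaving out control replicate 1 brought it past the threshold (edgeR adjusted p = 0.0350), as did leaving out RNF20 hairpin replicate 2 (0.0497). A replicate block (0.0339), no filter on low counts (0.0386) and limma-voom (limma-voom adjusted p = 0.0492) did the same. The edgeR adjusted p rose to 0.164 without RNF20 hairpin replicate 1 (log2 fold change -0.78) and to 0.127 without control replicate 3. It rose to 0.109 without RNF20 hairpin replicate 3 and to 0.0846 without control replicate 2.

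**Figure D4:**
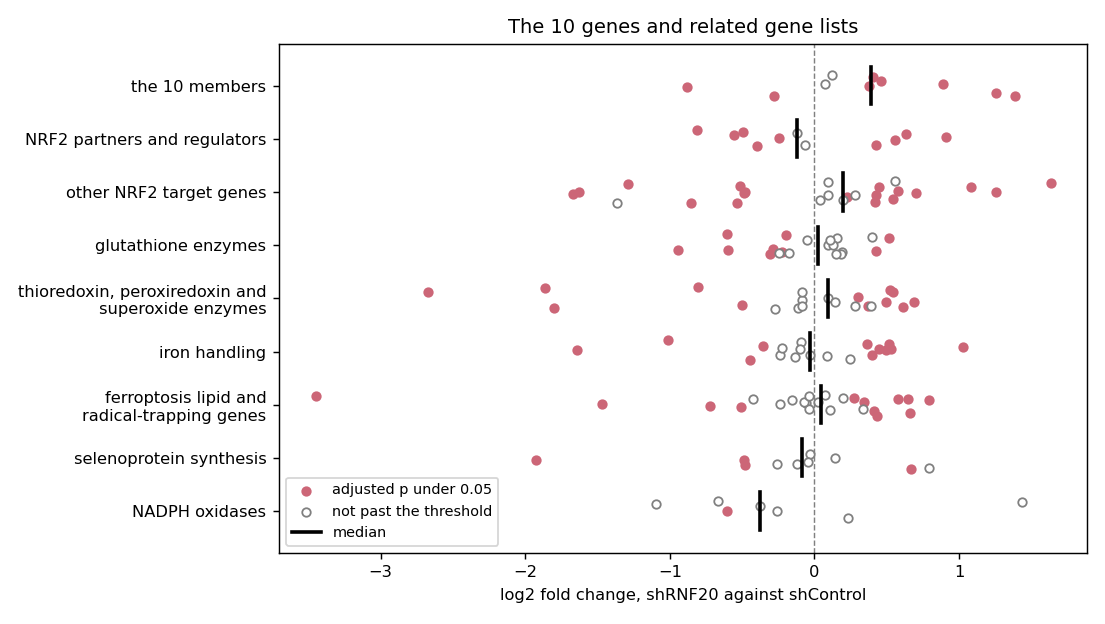
log2 fold change (x axis, RNF20 hairpin against control hairpin) of every tested gene of the 10 described here and of the 8 related lists; each point is a gene, filled where the edgeR adjusted p is under 0.05, and vertical bars are medians. The median of the 10 genes is 0.39, those of the 8 lists lie between -0.38 and 0.20, and every list but the NADPH oxidases holds genes past the threshold on both sides of 0.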

How the data were processed

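RNA sequencing was read from 6 libraries of MDA-MB-231 cells, 3 in each group. FastQC 0.12.1, STAR 2.7.11a and hg38 are named in the submitters' processing notes; the release of the annotation is not given in the sources used here. Raw read counts per gene were deposited by the authors in 3 countings, 1 of which ignores strand. As the other two were near equal (50.1% to 50.2% of the reads in 1 of them), the counts that ignore strand were used. In them, reads on exons of several genes are set aside as ambiguous (10.7% to 11.2% of reads), as are reads mapping to several places. Lines naming no gene (20.9% to 24.1%) were left out.

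Symbols were found for 62639 of 62703 genes. Positions and exon lengths came from GENCODE 29, which holds 58264 of them, and promoters from RefSeq. Counts were filtered with filterByExpr (minimum count 10), TMM scaled and tested with edgeR 4.0.16 (quasi-likelihood test, both groups, no covariate, R 4.3.3), Benjamini-Hochberg adjustment, threshold 0.05. The scripts were tested on simulated data. Correlations used a prior count of 2. Ratios were tested by exact permutation of libraries. Of the 146 list genes, 2 could not be matched to 1 gene. Named were the 10 genes, RNF20, FTL, the 2 genes with the smallest p in each list, genes of a direction with 5 or fewer in a list, and the 3 genes most like NFE2L2. A few genes chosen this way are not reported here. The genes and lists were chosen with earlier results of these data known. Alternatives were DESeq2 1.42.0, limma-voom (limma 3.58.1), other scalings and filters, and a test against a 1.2-fold change. Further alternatives were strand-column sums, a replicate block, a fit without mitochondrially encoded genes, and leaving out or summing libraries. No 2 replicates agreed within sampling noise (chi-square per degree of freedom at least 2.05), but the RNF20 hairpin libraries were close (2.05 to 6.95, against 32.5 to 53.3 among controls), so the summed fit treats them as 1 sample.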

Additional observations from a re-analysis of the deposited data

Results flagged for a closer look

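Reads that fell outside annotated exons, which enter no gene count, took 5.33% of all reads in the RNF20 hairpin libraries (5.05% to 5.49%, SD 0.243, n = 3) and 2.49% in the control libraries (2.39% to 2.58%, SD 0.0998, n = 3). They are listed here because they lie outside the gene counts and are above the control level. The difference was 2.84 percentage points, and the groups did not overlap (exact permutation p = 0.1, two-sided, the smallest that 3 against 3 libraries allow). Its part in the values of the 10 genes was not tested.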

How the results depend on the processing

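NQO1, TXNRD1 and GPX4 kept their direction and call in all 17 alternatives. With the RNF20 hairpin libraries summed into 1 sample, assumed to vary like the controls, 1753 genes were higher and 1619 lower, and 2 of the 10 genes were higher and 1 lower; log2 fold changes (edgeR adjusted p) were then 0.41 (0.150) for NFE2L2, -0.25 (0.316) for KEAP1, 0.44 (0.173) for HMOX1, 0.48 (0.128) for GCLC and 0.93 (0.142) for SRXN1. Tested against a 1.2-fold change, 1 of the 10 genes was lower, and the calls of NFE2L2 (0.38, 0.0938), KEAP1 (-0.28, 0.323) and HMOX1 (0.41, 0.0670) were lost. With shared reads added, NFE2L2 lost its call (0.24, 0.0773) and the KEAP1 to NFE2L2 ratio moved to -0.495. Leaving out 1 library at a time, the members lower numbered 1 to 2, and log2 fold changes ranged from -0.35 to -0.21 for KEAP1, 0.36 to 0.44 for HMOX1, 0.72 to 0.98 for SRXN1, -0.075 to 0.25 for GCLM and -0.007 to 0.32 for FTH1. Of 593 alternatives for 35 named genes of the lists, 552 kept the call, 36 lost it (19 with the libraries summed), 5 gained it and 0 reversed; these alternatives for list genes were chosen after seeing the data. The replicate numbers do not pair the libraries (correlations of deviations between libraries of the same number -0.016 to 0.035). With a replicate block 4418 genes were higher and 4518 lower, 6 of the 10 genes were higher and 2 lower, and no call of the 10 genes changed. SRXN1, with 36 to 97 counts, is the gene most limited by depth.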
